A study of Mus musculus with 10 samples.

Results

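Tagln, Acta2, Myl9, Tpm1, Tpm2, Cnn2, Mustn1, Pgm5 and Pdlim1 are 9 contractile and cytoskeletal genes whose unique molecular identifier (UMI) counts were followed in endothelial cells (ECs) of mouse long bone. They were picked by name, with their levels in these libraries already known, out of 26504 gene symbols, so their differences between vessel types are given as a description and carry no test. Their tests by age and treatment use the same libraries and are not independent of that choice. Each UMI stands for 1 captured transcript. Of 47466 cell barcodes, 46283 had between 500 and 6000 detected genes and under 25% mitochondrial UMIs, and 45070 of these held 2 or more UMIs of Cdh5, Pecam1, Egfl7 and Kdr together and were taken as ECs. All 9 genes were detected. On the filter for low counts, 9 could be tested in sinusoidal ECs, 8 in arterial ECs, 8 in Timp4/Aqp7 ECs and 7 in Vwf/Fmo2 ECs.

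The 10 libraries were made from femur and tibia of C57BL/6 mice that carried Cdh5-mTnG, a reporter that puts a red membrane and a green nuclear protein under the control of the VE-cadherin gene, and haematopoietic cells were depleted before double-positive cells were sorted. Each of 5 groups has 2 libraries: untreated juvenile (3 weeks, males and females), untreated adult (12 weeks, females), untreated aged (75 weeks, females), PTH (12 weeks, females given a parathyroid hormone fragment that builds bone) and alendronate (12 weeks, females given a bisphosphonate that blocks bone resorption). Animals were pooled within a group and the experiment was done once, so p-values measure the spread between libraries and not between mice. Total UMIs per library ran from 10653583 to 28419323, and the median per cell from 3075 to 5149, with the aged pair highest. The aged libraries shared 3 or 4 cell barcodes with any other library against 10 to 88 among pairs without an aged library, and 643 symbols were found in both aged libraries only, 256 of them beginning with U. The reagent version of each library is not given in the sources used here, so age and library preparation cannot be told apart. Juvenile libraries also differ from adult ones in sex, which cannot be told apart from age.

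As background, contraction in vessels is the work of mural cells, the smooth muscle cells and pericytes that wrap the endothelial tube. Acta2 encodes smooth muscle actin, Myl9 a myosin regulatory light chain, and Tpm1 and Tpm2 are tropomyosins that lie along actin filaments and gate myosin's access to them. Tagln (transgelin, also SM22) and Cnn2 (calponin 2) bind and stabilise actin filaments, Pdlim1 is a PDZ-LIM adaptor that links alpha-actinin to stress fibres, Pgm5 (aciculin) sits at adherens junctions and focal adhesions, and Mustn1 is a small nuclear protein of muscle and skeletal tissue. Many smooth muscle genes are driven by serum response factor (SRF) through the CArG box. ECs also build actin bundles, from non-muscle actin and myosin, and markers of mural cells are therefore needed beside any smooth muscle gene measured in them.

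All 9 genes are protein coding in the mm10 assembly (GENCODE M21). Tagln lies at chr9:45929619-45936058 on the minus strand and overlaps Pcsk7 and the antisense gene Gm48529. Both lie on the opposite strand. The strand setting of the counting is not given, so reads of Tagln and of either gene cannot be told apart where they overlap. Acta2 lies at chr19:34241090-34255590, Pgm5 at chr19:24683016-24861855 and Pdlim1 at chr19:40221173-40271842, all on the minus strand, and 2 pseudogenes lie within Pgm5. Tpm1 lies at chr9:67022590-67049406 and Tpm2 at chr4:43514711-43523765 on the minus strand. Myl9 at chr2:156775420-156781658, Cnn2 at chr10:79988584-79996062 and Mustn1 at chr14:30879200-30881610 are on the plus strand.

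Promoter sequence was read from RefSeq (GRCm38.p6), as 250 bases before to 50 bases after each gene's start. Of the 9 genes 8 had an entry, and Tagln, which had none, was not searched. The CArG box was searched as CCWWWWWWGG, where W is A or T, so a box with another letter in its core would be missed. Searched on both strands, it was found in the windows of Myl9 and Cnn2 and in 1.63% of all 32851 promoters. The TEAD motif CATTCC was found in the windows of Acta2, Mustn1 and Tpm1 and in 14.7% of promoters, and the AP-1 motif TGANTCA in 0 of 8 windows and in 7.81% of promoters. A match is a string of letters and no evidence of binding. The stretch before the start is printed for the pair of genes that hold a CArG box, with the box in capitals, and for Mustn1 and Pgm5, which had their highest levels in Vwf/Fmo2 ECs and hold none of the motifs in the printed bases (the TEAD match of Mustn1 lies after its start). Each is given 5′ to 3′ on the strand of its gene.
Myl9, chr2:156775214-156775419, plus strand: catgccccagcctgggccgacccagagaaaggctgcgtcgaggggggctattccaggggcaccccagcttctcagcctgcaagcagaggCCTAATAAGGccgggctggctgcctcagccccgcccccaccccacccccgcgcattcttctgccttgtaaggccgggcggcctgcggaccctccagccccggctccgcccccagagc
Cnn2, chr10:79988350-79988583, plus strand: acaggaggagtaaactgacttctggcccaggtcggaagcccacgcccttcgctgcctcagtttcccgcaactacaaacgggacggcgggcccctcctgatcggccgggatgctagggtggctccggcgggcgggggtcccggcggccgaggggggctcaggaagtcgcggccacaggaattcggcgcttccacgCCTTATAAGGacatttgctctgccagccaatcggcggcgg
Mustn1, chr14:30879007-30879199, plus strand: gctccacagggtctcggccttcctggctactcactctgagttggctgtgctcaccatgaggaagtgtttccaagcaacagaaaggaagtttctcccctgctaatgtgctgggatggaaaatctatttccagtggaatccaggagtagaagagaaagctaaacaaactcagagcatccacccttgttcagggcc
Pgm5, chr19:24861856-24862092, minus strand: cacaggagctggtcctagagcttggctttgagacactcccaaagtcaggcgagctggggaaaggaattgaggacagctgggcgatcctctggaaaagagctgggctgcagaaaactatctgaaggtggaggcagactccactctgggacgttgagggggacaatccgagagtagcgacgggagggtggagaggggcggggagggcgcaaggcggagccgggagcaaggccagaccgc

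ECs were sorted into 4 types by UMI counts of marker genes. Sinusoidal ECs held 3 or more UMIs of Stab2, a scavenger receptor (18097 cells, 40.2% of ECs). Arterial ECs held 2 or more of Gja4, a gap junction protein of arteries (5948 cells, 13.2%). The remaining gates are the 2 markings used for type R ECs, the vessels described near trabecular bone: Timp4/Aqp7 ECs held 2 or more UMIs of Timp4 and Aqp7 together (1841 cells, 4.08%), and Vwf/Fmo2 ECs held 2 or more of Vwf and 1 or more of Fmo2 (741 cells, 1.64%). Cells of several gates (619) and of none (17824) were kept apart. Levels are in CPM, the UMIs of a gene scaled to a common total over the summed cells of a type in a library, for sums of 20 cells or more, which leaves out the juvenile Vwf/Fmo2 ECs (5 and 10 cells) and keeps 8 libraries for that type.

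Marker genes outside the gates bore out the sinusoidal and arterial names. Sinusoidal ECs had summed levels of 6032 to 8725 CPM for a 6-gene sinusoidal list, against at most 536 CPM in any other type, and arterial ECs had 2922 to 4295 CPM for the arterial list, against at most 1234 CPM. Timp4/Aqp7 ECs were highest for the 6-gene type R list, at 8077 to 11773 CPM. Vwf/Fmo2 ECs came next at 3276 to 4987 CPM, against at most 3066 CPM in arterial and 450 CPM in sinusoidal ECs. Of the 6 genes, Car4, a carbonic anhydrase, set the Vwf/Fmo2 ECs apart from Timp4/Aqp7 ECs. It averaged 435 CPM in Timp4/Aqp7 ECs and 7.14 CPM in Vwf/Fmo2 ECs, where it was at 0 in 6 of 8 libraries. The venous list, led by Darc and Nr2f2, reached 1963 to 3226 CPM in Vwf/Fmo2 ECs and 2119 to 2624 CPM in sinusoidal ECs, against at most 532 CPM in the other types. They are therefore called here by their gate.

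Tagln differed widely between the types. In Vwf/Fmo2 ECs its level was 1405 and 2237 CPM in the adult pair, 1236 and 1295 in the aged pair, 1447 and 1761 under PTH and 1473 and 1651 under alendronate. In Timp4/Aqp7 ECs it ran from 10.6 CPM (aged replicate 1) to 205 CPM (juvenile replicate 2), in arterial ECs from 3.39 to 68.9 CPM and in sinusoidal ECs from 1.31 to 15.0 CPM. No Vwf/Fmo2 library came within the range of any other type, while the ranges of the remaining 3 types overlapped. On the log2(CPM + 1) scale, Tagln was higher in Vwf/Fmo2 than in sinusoidal ECs by 7.12 ± 0.91 (SD, n = 8 libraries), a mean fold of 139, and higher than in Timp4/Aqp7 ECs by 4.41 ± 1.15 (SD, n = 8), a mean fold of 21.3. The juvenile libraries had 52 Tagln UMIs in 5 Vwf/Fmo2 cells and 58 in 10 cells, or 2280 and 1859 CPM, so the level was there in the few cells that passed the gate.

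Mustn1 and Pgm5 had their highest level in the same type. Mustn1 was at 240 and 307 CPM in adult, 151 and 201 in aged, 267 and 292 in PTH and 354 and 329 in alendronate Vwf/Fmo2 ECs. It stood at 98.5 to 223 CPM in Timp4/Aqp7, 4.90 to 21.3 in arterial and 1.35 to 3.90 CPM in sinusoidal ECs. Both kinds of type R-gated cells thus held Mustn1 above every arterial and sinusoidal library, and Vwf/Fmo2 ECs exceeded Timp4/Aqp7 ECs in 8 of 8 libraries by 0.81 ± 0.39 on the log2 scale (SD, n = 8). Pgm5 was at 134 to 201 CPM in Vwf/Fmo2 ECs, at 0 to 29.5 CPM in Timp4/Aqp7 ECs, at 0 to 2.29 CPM in arterial ECs and at 0 to 1.63 CPM in sinusoidal ECs. Pgm5 separated the gates of type R from each other: the difference was 3.08 ± 0.42 on the log2 scale (SD, n = 8), higher in Vwf/Fmo2 ECs in 8 of 8 libraries.

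Pdlim1 was shared by both gates of type R. It was at 612 and 622 CPM in adult, 442 and 427 in aged, 632 and 634 in PTH and 630 and 716 in alendronate Vwf/Fmo2 ECs, and at 383 to 827 CPM in Timp4/Aqp7 ECs. The difference between these gates was 0.01 ± 0.22 on the log2 scale (SD, n = 8), with Vwf/Fmo2 higher in 5 of 8 libraries, so the gates could not be put in order. Arterial ECs held 119 to 233 CPM of Pdlim1 and sinusoidal ECs 48.5 to 96.2 CPM, and within each library arterial was the higher, in 10 of 10.

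The tropomyosin and calponin members were found in every type and differed less. Tpm1 was highest in sinusoidal ECs in 7 of the 8 libraries with all 4 types, the exception being adult replicate 2, where Vwf/Fmo2 ECs had 244 CPM. Sinusoidal ECs held 211 to 285 CPM, against 119 to 153 CPM in arterial, 44.0 to 231 in Timp4/Aqp7 and 113 to 244 in Vwf/Fmo2 ECs. Arterial ECs were below sinusoidal ECs in 10 of 10 libraries, by 0.90 ± 0.18 on the log2 scale (SD, n = 10). Tpm1 therefore ran opposite to Mustn1 and Pdlim1, which were higher in arterial than in sinusoidal ECs in 10 of 10 libraries. Cnn2 was at 59.1 to 88.5 CPM in sinusoidal and 55.6 to 101 CPM in Vwf/Fmo2 ECs, and at 87.5 to 176 CPM in arterial and 89.6 to 218 CPM in Timp4/Aqp7 ECs, so that the levels of the gates of type R differed for this gene, with Vwf/Fmo2 lower in 8 of 8 libraries.

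The smooth muscle members Acta2, Myl9 and Tpm2 had low levels that differed between libraries of the same type. Acta2 in arterial ECs was at 21.7 and 82.3 CPM in juvenile, 36.8 and 38.7 in adult, 3.39 and 2.34 in aged, 30.7 and 20.9 in PTH and 116 and 26.0 in alendronate libraries. It was at 0 to 113 CPM in Timp4/Aqp7, 0 to 31.5 CPM in Vwf/Fmo2 and 0 to 8.66 CPM in sinusoidal ECs, and only arterial against sinusoidal kept 1 direction in 10 of 10 libraries. Myl9 ran from 1.56 to 45.7 CPM and Tpm2 from 0 to 34.0 CPM in arterial ECs, and the mean of either over the sinusoidal libraries was under 3 CPM. The range of each of these genes in arterial ECs overlapped its range in the other 3 types.

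**Figure D1:**
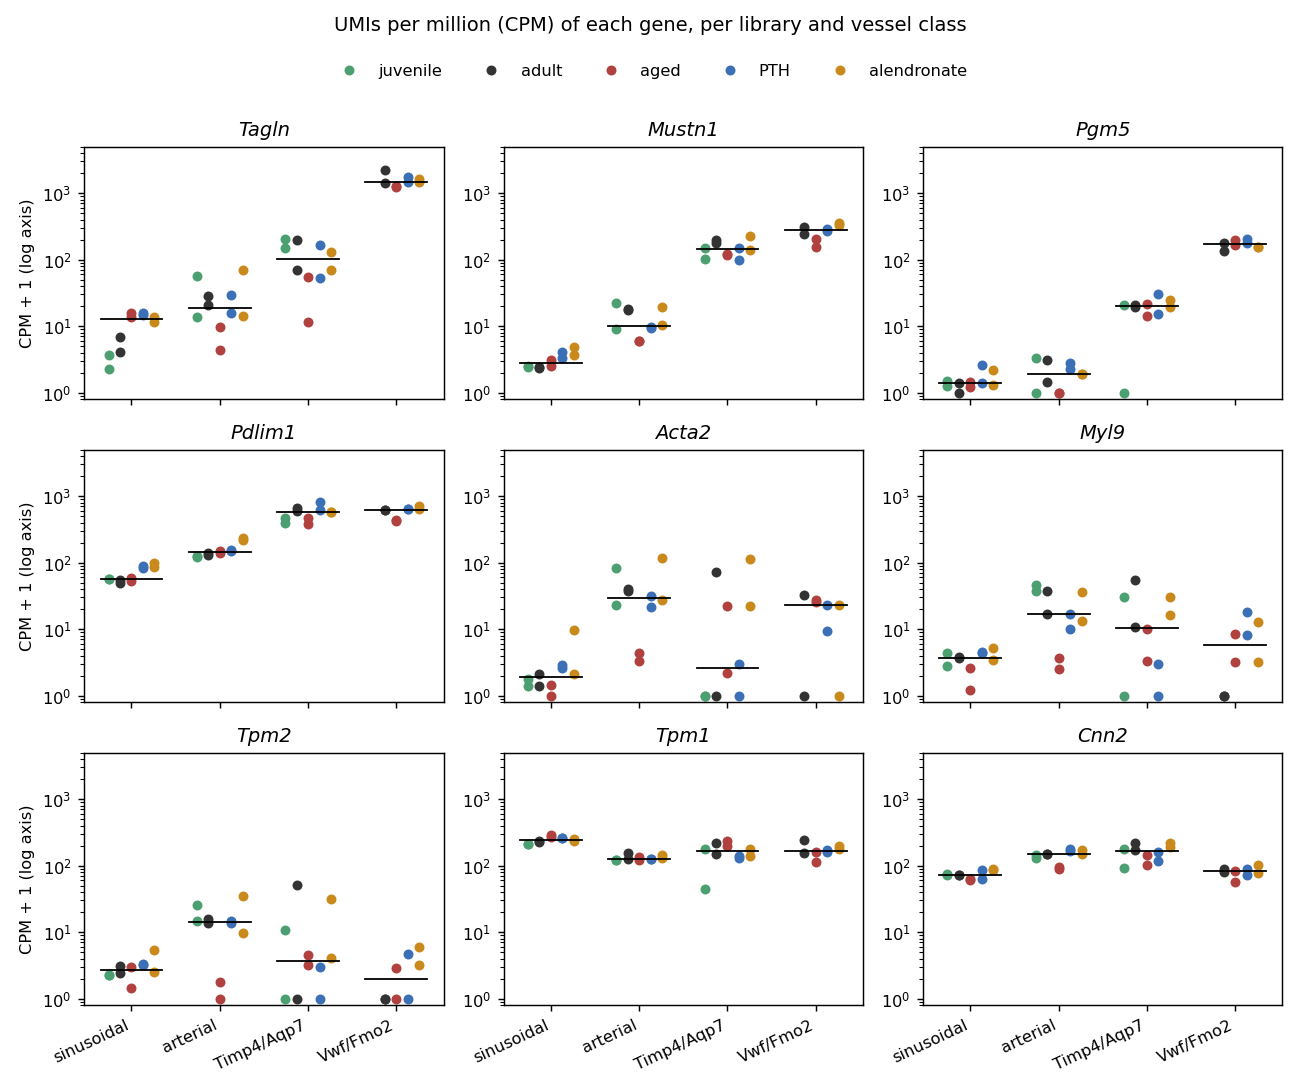
Level of each of the 9 genes in each EC type (CPM + 1, log axis), with 1 point per library coloured by group and a line at the median, for sums of 20 cells or more. The Tagln points of Vwf/Fmo2 ECs (1236 to 2237 CPM) lie above all points of the other types, the Pdlim1 points of both type R gates overlap, and Acta2, Myl9 and Tpm2 spread widely within arterial and Timp4/Aqp7 ECs.

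Counting the members that were higher in every library of a pair of types, Vwf/Fmo2 exceeded sinusoidal ECs for 4 of 9 (Tagln, Mustn1, Pgm5, Pdlim1), where 4.98% of all genes with a UMI did so. Timp4/Aqp7 exceeded sinusoidal ECs for 3 (Cnn2, Mustn1, Pdlim1), against 4.56% of genes, Vwf/Fmo2 exceeded Timp4/Aqp7 ECs for 3 (Tagln, Mustn1, Pgm5), against 4.22%, and arterial exceeded sinusoidal ECs for 4 (Acta2, Cnn2, Mustn1, Pdlim1), against 10.8%. Since the genes were chosen for such differences, nothing is read from these counts. Of all UMIs of ECs, Vwf/Fmo2 ECs supplied 1.68%, yet they supplied 44.1% of Tagln, 45.4% of Pgm5, 22.9% of Mustn1 and 7.73% of Pdlim1 UMIs. Sinusoidal ECs supplied 57.0% of Tpm1 UMIs with 43.9% of all UMIs.

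Depth differed between the types, with a median of 2343 UMIs per cell in Timp4/Aqp7 ECs and 4114 in sinusoidal ECs, so cells were also thinned to 1000 UMIs each. After thinning, Tagln was detected in 48.6% ± 7.78 of Vwf/Fmo2 ECs (SD, n = 8 libraries; 35.5 to 58.8%; 67.5% of cells before thinning). It was detected in 4.70% ± 3.44 of Timp4/Aqp7 ECs (SD, n = 10), in 0.843% of arterial and in 0.606% of sinusoidal ECs. Among cells with 5 or more UMIs of haematopoietic markers and at most 1 UMI of the endothelial genes, which should lack the gene, it was found in 0 of 373 cells, which allows a share of up to 0.804% by counting error only. By library the share ran from 0.0834 to 1.18% in sinusoidal and from 0.233 to 1.79% in arterial ECs, on both sides of that limit, so these shares could not be told from background by this number of cells. The haematopoietic-marker cells held 2 Tagln UMIs before thinning, or 0.762 CPM.

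Mustn1 was detected in 22.8% ± 5.42 of Vwf/Fmo2 (SD, n = 8) and 12.7% ± 6.31 of Timp4/Aqp7 ECs (SD, n = 10), and Pgm5 in 15.1% ± 3.56 of Vwf/Fmo2 ECs (SD, n = 8) and 1.14% of Timp4/Aqp7 ECs, with 0 of 373 haematopoietic-marker cells for both. Pdlim1 was detected in 45.3% ± 7.89 of Vwf/Fmo2 (SD, n = 8), 38.9% ± 11.2 of Timp4/Aqp7, 13.9% ± 3.10 of arterial and 5.86% ± 1.74 of sinusoidal ECs (SD, n = 10 each), beside 5.09% of haematopoietic-marker cells. Cnn2 was detected in 19.0% of haematopoietic-marker cells, more than in any EC type, where the highest mean was 16.3% ± 4.02 (SD, n = 10) in Timp4/Aqp7 ECs. Tpm1 was detected in 21.6% ± 2.80 of sinusoidal ECs (SD, n = 10) and in 4.02% of haematopoietic-marker cells. The mean shares of Acta2, Myl9 and Tpm2 were under 1% in all 4 types. The arterial share of Acta2 was 0.673%, beside 0.804% of haematopoietic-marker cells. The 95% interval of the latter is 0.166 to 2.33%, so these shares could not be put in order. Before thinning, all 14 Acta2 UMIs of the haematopoietic-marker cells came from aged libraries. Pooled, Acta2 was at 36.1 CPM in arterial ECs and 5.33 CPM in haematopoietic-marker cells.

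The members also differed in how evenly their UMIs were spread over the cells of a type. In Vwf/Fmo2 ECs the 1% of cells with most Tagln UMIs held 9.05% of them, and 500 of 741 cells had a Tagln UMI. The same share was 6.37% for Mustn1, 7.59% for Pgm5 and 6.02% for Pdlim1, so all 4 were spread over the type. In arterial ECs the top 1% of cells held 97.2% of Acta2 UMIs, 92.8% of Myl9 and 88.9% of Tagln UMIs, and 87 of 5948 cells had an Acta2 UMI, up to 227 in 1 cell. The Tagln UMIs of Timp4/Aqp7 ECs were concentrated as well, with 71.3% in the top 1% and 86 of 1841 cells with a UMI, whereas Mustn1 (10.6%) and Pdlim1 (6.39%) were spread there.

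**Figure D2:**
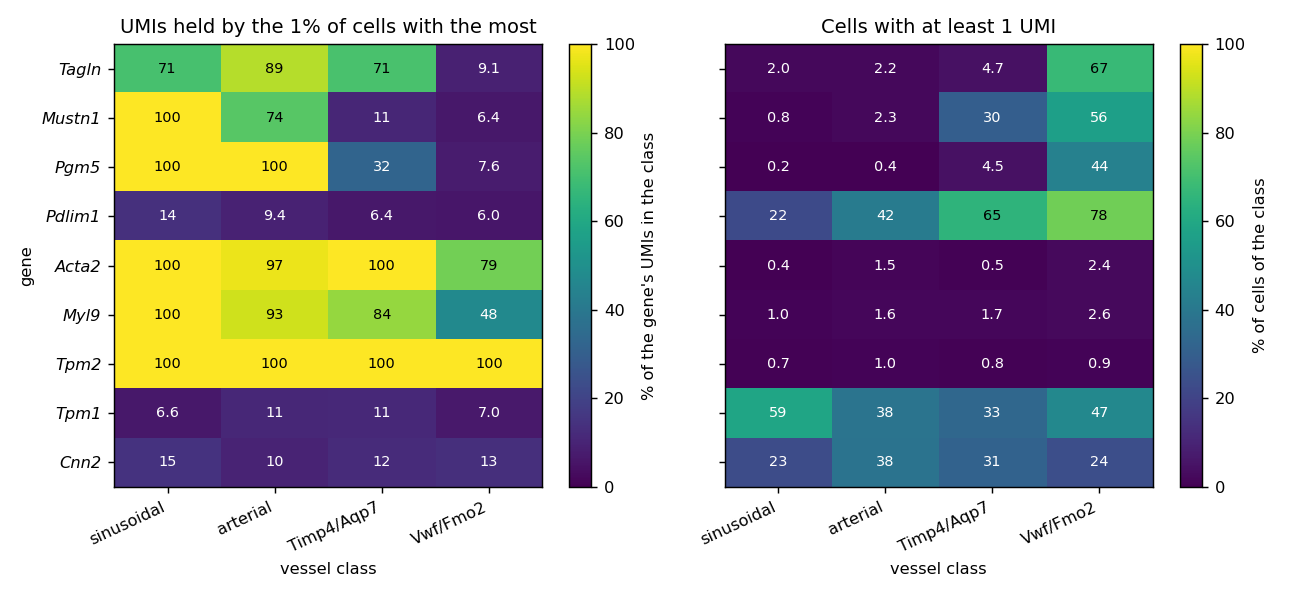
Left, the percentage of a gene's UMIs held by the 1% of cells of a type with most UMIs of it (100 by construction where under 1% of cells have a UMI); right, the percentage of cells with 1 or more UMIs, before thinning. Tagln reads 9.05% and 67.5% in Vwf/Fmo2 ECs, while Acta2 reads 97.2% and 1.46% in arterial ECs.

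Mural cells were followed with 8 markers: Myh11, Rgs5, Notch3, Pdgfrb, Cspg4, Des, Cnn1 and Lmod1. Cells with 5 or more UMIs of these and 1 or more of Myh11, the smooth muscle myosin heavy chain, numbered 51, of which 43 passed the endothelial gate, 22 of them as arterial ECs, 2 as sinusoidal, 2 as Timp4/Aqp7 and 0 as Vwf/Fmo2 ECs. Pooled, the 51 cells held Acta2 at 8675 CPM, Tagln at 4749, Myl9 at 3830, Tpm2 at 3055, Tpm1 at 1698 and Mustn1 at 1543 CPM, but Pgm5 at only 3.51 CPM. These cells therefore held 7 of the 9 genes above the mean of every EC type, and held Pgm5 and Pdlim1 (232 CPM) below Vwf/Fmo2 ECs.

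The proportions between the genes differed between these cells and Vwf/Fmo2 ECs. There were 183 Acta2 UMIs per 100 Tagln UMIs in the mural-marker cells and 152 in arterial ECs, but 42.7 in Timp4/Aqp7, 22.6 in sinusoidal and 1.17 in Vwf/Fmo2 ECs. If all Acta2 UMIs of a type came at the proportions of the mural-marker cells, they would bring along 83.0% of the Tagln, 89.1% of the Myl9, 96.1% of the Tpm2 and 58.8% of the Mustn1 UMIs of arterial ECs, 23.4% of the Tagln UMIs of Timp4/Aqp7 ECs, and 0.638% of the Tagln and 1.17% of the Mustn1 UMIs of Vwf/Fmo2 ECs. The 22 mural-marker cells counted as arterial ECs held 828 of the 958 Acta2 and 434 of the 632 Tagln UMIs of that type. The arterial percentages therefore set largely the same cells against each other. Arterial ECs without a mural marker UMI had 69.5 Acta2 UMIs per 100 Tagln UMIs. The reckoning exceeded 100% for Tpm2 (282%) and Myl9 (118%) in Vwf/Fmo2 and for Tpm2 (112%) in Timp4/Aqp7 ECs, where few UMIs were found. Across Vwf/Fmo2 libraries the 8 markers summed to 0 to 19.0 CPM, and 7 of the 8 averaged under 5 CPM. Notch3 and Cspg4 were at 0 in 8 of 8 libraries and Myh11 in 7 of 8.

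Leaving out every cell with a UMI of any of the 8 markers gave the same picture from the side of the cells. In arterial ECs, 5712 of 5948 cells stayed, and the pooled level of Acta2 went from 36.1 to 4.53 CPM, Tagln from 23.8 to 6.52, Myl9 from 17.9 to 2.86, Tpm2 from 13.2 to 1.51 and Mustn1 from 10.9 to 4.93 CPM. Tpm1 (130 to 124 CPM), Cnn2 (145 both ways) and Pdlim1 (164 both ways) held their level. In Vwf/Fmo2 ECs, 719 of 741 cells stayed, and Tagln (1529 to 1534 CPM), Mustn1 (270 both ways) and Pgm5 (172 both ways) were as high without them. In Timp4/Aqp7 ECs, Acta2 went from 33.9 to 9.01 CPM while Tagln (79.3 to 71.8) and Mustn1 (154 to 150) changed little.

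**Figure D3:**
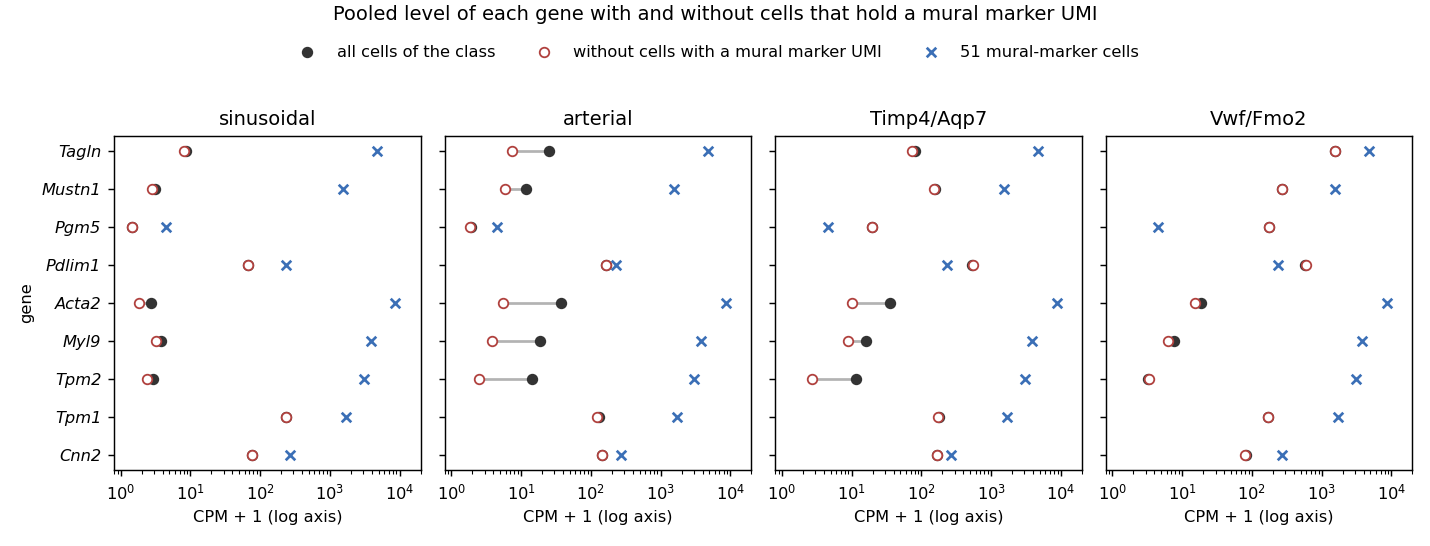
Pooled level of each gene in each EC type (CPM + 1, log axis), with black points for all cells, open red points without cells that hold a mural marker UMI, and blue crosses for the 51 mural-marker cells. In arterial ECs the red points of Tagln, Acta2, Myl9, Tpm2 and Mustn1 drop below the black ones (Acta2 from 36.1 to 4.53 CPM), and in Vwf/Fmo2 ECs those of Tagln, Mustn1, Pgm5 and Pdlim1 stay in place.

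Tagln was also higher in cells with Vwf among those that did not pass the Vwf/Fmo2 gate. The 229 Timp4/Aqp7 ECs with a Vwf UMI had Tagln at a pooled 335 CPM, against 34.1 CPM in the 1612 without. Among cells of no gate, the 648 with 2 or more Vwf UMIs had 639 CPM of Tagln and 67.6 CPM of Pgm5, against 32.9 and 3.81 CPM in the rest. The 104 cells that passed both type R gates, and were counted in neither type, had 589 CPM of Tagln and 103 CPM of Pgm5. By contrast, the 137 cells of both the arterial and the Timp4/Aqp7 gate had Acta2 at 629 CPM beside Tagln at 353 CPM, close in proportion to the mural-marker cells. Within Vwf/Fmo2 ECs, 49.2% of the 500 cells with a Tagln UMI also had Pgm5 and 59.4% had Mustn1, against 33.2% and 49.8% of the 241 cells without Tagln, whose median depth was lower (3155 against 4294.5 UMIs).

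Over the 38 sums of a type and a library, the genes whose log2(CPM + 1) pattern was most like each member's were ranked by Pearson's r among 6648 genes, as a description. The points share libraries, and most of the spread lies between the 4 types. Tagln was most like Cd9, a tetraspanin (r = 0.95), and Ret, a receptor tyrosine kinase (r = 0.91). Mustn1 was most like Meox2, a homeobox factor of vascular cells (r = 0.97), and Pdlim1 like C1qtnf9, a secreted C1q/TNF protein (r = 0.98). Pgm5 was most like Cysltr1, a leukotriene receptor (r = 0.90), and Tpm1 like Irf8 (r = 0.84). Among the members, Tagln had r = 0.89 with Pgm5, 0.87 with Mustn1 and 0.82 with Pdlim1, but 0.24 with Acta2, while Myl9 had r = 0.81 with Tpm2.

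Other genes of the actin cytoskeleton were taken from 7 lists with 65 genes, of which 63 were found and 55 tested between the types by edgeR's quasi-likelihood test with library as a term (called where the Benjamini-Hochberg adjusted p was under 0.05 with a difference past 1 on the log2 scale). Against sinusoidal ECs, 15 of the 55 were higher and 4 lower in arterial ECs (17% of all genes were called), 15 higher and 5 lower in Timp4/Aqp7 ECs (21.4% called) and 12 higher and 4 lower in Vwf/Fmo2 ECs (18.5% called). The median of the tested list members was 0.57, 0.42 and 0.28 on the log2 scale, where that of all genes was between -0.02 and -0.01. The LIM and PDZ-LIM genes, the relatives of Pdlim1, had 8, 7 and 7 of 15 tested members higher and 2, 3 and 2 lower in the same comparisons. The smooth muscle list, by contrast, had 5 of 10 genes above the filter and 1, 1 and 0 of them higher, the one being Myh11 in both cases, and 1 lower in each comparison. Mural-marker cells, which Myh11 helps to define, held 130 of the 139 Myh11 UMIs of arterial ECs. They also held 13 of the 16 Myh11 UMIs of Timp4/Aqp7 ECs.

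Crip1, a small LIM protein, averaged 85.5 CPM in sinusoidal, 1320 in arterial, 2624 in Timp4/Aqp7 and 3610 CPM in Vwf/Fmo2 ECs, a log2 difference of 5.39 ± 0.17 (SE) between the last and the first. Pdlim4, a paralogue of Pdlim1, averaged 2.98, 45.0, 119 and 169 CPM in the same order. Both were higher in arterial than in sinusoidal ECs, and in either type R gate than in arterial ECs, past the test. Between the type R gates, 7 of 55 genes were higher and 6 lower in Vwf/Fmo2 than in Timp4/Aqp7 ECs (13% of all genes called). Csrp2, a cysteine-rich LIM protein of smooth muscle, was higher in Vwf/Fmo2 ECs by 2.22 ± 0.19 (SE; 183 against 46.9 CPM), Actn1, an alpha-actinin, by 1.70 ± 0.11 (345 against 114 CPM) and Mylk, myosin light chain kinase, by 1.24 ± 0.20 (113 against 51.8 CPM). Nestin (Nes) was lower there, with a difference of -3.07 ± 0.19 (SE; 20.4 against 150 CPM), as was Lims2, an adaptor of integrin-linked kinase, at -1.81 ± 0.14 (264 against 946 CPM).

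Of the 13 nonmuscle actomyosin genes, 2 were higher in arterial, 2 in Timp4/Aqp7 and 1 in Vwf/Fmo2 than in sinusoidal ECs, and 0, 0 and 1 were lower. All 3 intermediate filament genes tested were higher in arterial and in Timp4/Aqp7 ECs, and 2 of 3 in Vwf/Fmo2 ECs, led by vimentin (Vim), which averaged 314 CPM in sinusoidal, 3890 in arterial, 2324 in Timp4/Aqp7 and 4829 CPM in Vwf/Fmo2 ECs. The focal adhesion genes had 0 of 12 higher and 1 lower in arterial ECs, where Actn1 was at 61.4 CPM against 293 CPM in sinusoidal ECs.

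Ages and treatments were each compared with the adult pair, first over all ECs and then within each type, with edgeR's quasi-likelihood test on the summed counts and Benjamini-Hochberg adjustment over all genes tested. All 4 contrasts share the 2 adult libraries. In sums over all ECs, more cells of a type and more RNA per cell cannot be told apart. Over all ECs, Tagln was at 10.0 and 11.3 CPM in juvenile, 31.2 and 33.8 in adult, 65.6 and 75.1 in aged, 77.6 and 79.5 in PTH and 93.8 and 95.7 CPM in alendronate libraries. The 5 pairs did not overlap. Against adult, Tagln fell by 1.55 ± 0.09 on the log2 scale in juvenile (SE; adjusted p = 2.08e-08) and rose by 0.76 ± 0.07 in aged (adjusted p = 5.14e-07), 1.23 ± 0.07 in PTH (adjusted p = 6.11e-08) and 1.55 ± 0.07 in alendronate libraries (adjusted p = 2.75e-08).

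Pgm5 too was lowest in juvenile and next in adult libraries, at 1.04 and 1.07 CPM in juvenile, 2.84 and 2.23 in adult, 10.6 and 12.4 in aged, 8.08 and 8.74 in PTH and 8.16 and 9.99 CPM in alendronate libraries. Mustn1 went from 4.04 and 5.03 CPM in juvenile to 32.4 and 34.9 CPM in alendronate libraries, with the adult pair at 12.2 and 12.8 CPM. Pdlim1 went from 69.2 CPM in juvenile replicate 2 to 189 CPM in both alendronate libraries, with the adult pair at 88.1 and 86.0 CPM. Juvenile libraries were lower than adult ones for 7 of 9 members (all but Tpm1 and Cnn2), where 20.7% of all genes were. Aged libraries were higher for 4 (Tagln, Mustn1, Pgm5, Pdlim1) and lower for the other 5, where 36.3% of all genes were higher and 36.5% lower. With plain library totals the median of all genes in the aged contrast was 0.36, Tpm1 went from -0.38 to -0.03 and lost its call (adjusted p = 0.599) and Pdlim1 went from 0.32 to 0.67. Without cells holding a mural marker UMI, Acta2 was -1.32 in the aged contrast (adjusted p = 0.117) and Myl9 -0.74 in the juvenile one (adjusted p = 0.128). The mural markers summed over all ECs were at 28.7 to 58.7 CPM in adult, 6.00 to 19.3 in juvenile and 7.80 to 9.15 CPM in aged libraries, and the haematopoietic markers at 493 to 650 CPM in adult, 38.0 to 39.9 in juvenile, 1833 to 4205 in aged, 232 to 393 in PTH and 871 to 986 CPM in alendronate libraries. Mesenchymal markers were at 28.6 to 35.1 CPM in adult and 207 to 391 CPM in PTH libraries, and platelet and megakaryocyte markers at 111 to 139 CPM in adult, 165 to 166 in juvenile, 162 to 188 in PTH, 178 to 281 in alendronate and 26.2 to 27.7 CPM in aged libraries. Without cells holding a myofibre or platelet marker UMI, Pgm5 in the juvenile contrast went from -1.21 to -0.63 and lost its call (adjusted p = 0.0953), Tagln in the aged contrast went from 0.76 to 0.30 and passed (adjusted p = 0.00751), and 6, 9, 6 and 5 members were called in juvenile, aged, PTH and alendronate libraries. The fall of Tpm1 with PTH did not pass without adult replicate 2 (-0.16, adjusted p = 0.0739) or without cells holding a mural marker or Kcnj8 UMI (-0.25, adjusted p = 0.0536), nor did the rises of Cnn2 with PTH (0.15, adjusted p = 0.263) and alendronate (0.21, adjusted p = 0.113) in the latter setting. The part of the haematopoietic and mesenchymal markers in these changes was not tested. PTH libraries were higher for 5 (these 4 and Cnn2) and lower for Tpm1, where 13.3% and 12.6% of genes were, and alendronate libraries were higher for Tagln, Cnn2, Mustn1, Pgm5 and Pdlim1, where 12.2% of genes were.

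The share of ECs in the Vwf/Fmo2 gate also differed between the groups. It was 0.119 and 0.257% in juvenile, 0.718 and 0.659% in adult, 3.35 and 3.90% in aged, 2.50 and 1.99% in PTH and 2.26 and 2.52% in alendronate libraries. The share was lowest in the juvenile pair and next in the adult pair, as the levels of Tagln, Mustn1, Pgm5 and Pdlim1 over all ECs were, but it was highest in the aged pair, where Tagln, Mustn1 and Pdlim1 over all ECs were below their levels in alendronate libraries. The gate is a fixed count of UMIs, and these shares were not matched for depth. Median UMIs per cell were 5149 and 5056 in aged, 3276 and 3075 in adult and 3951 and 4195 in juvenile libraries. In sinusoidal ECs Vwf was lowest in the adult pair (5.96 and 7.24 CPM) and highest in the aged pair (33.6 and 26.9 CPM). The part of depth and of the Vwf level in the shares was not tested. Within the gate no rise of Tagln passed in the 3 groups tested, which leave out the juvenile one. The log2 difference from adult was -0.18 ± 0.13 in PTH (SE; edgeR, adjusted p = 0.795) and -0.20 ± 0.12 in alendronate libraries (SE; adjusted p = 0.706), and Tagln fell by 0.59 ± 0.13 in aged libraries (SE; adjusted p = 0.00044). That last call rests on adult replicate 2 (2237 CPM), without which the difference was -0.22 (adjusted p = 0.366).

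**Figure D4:**
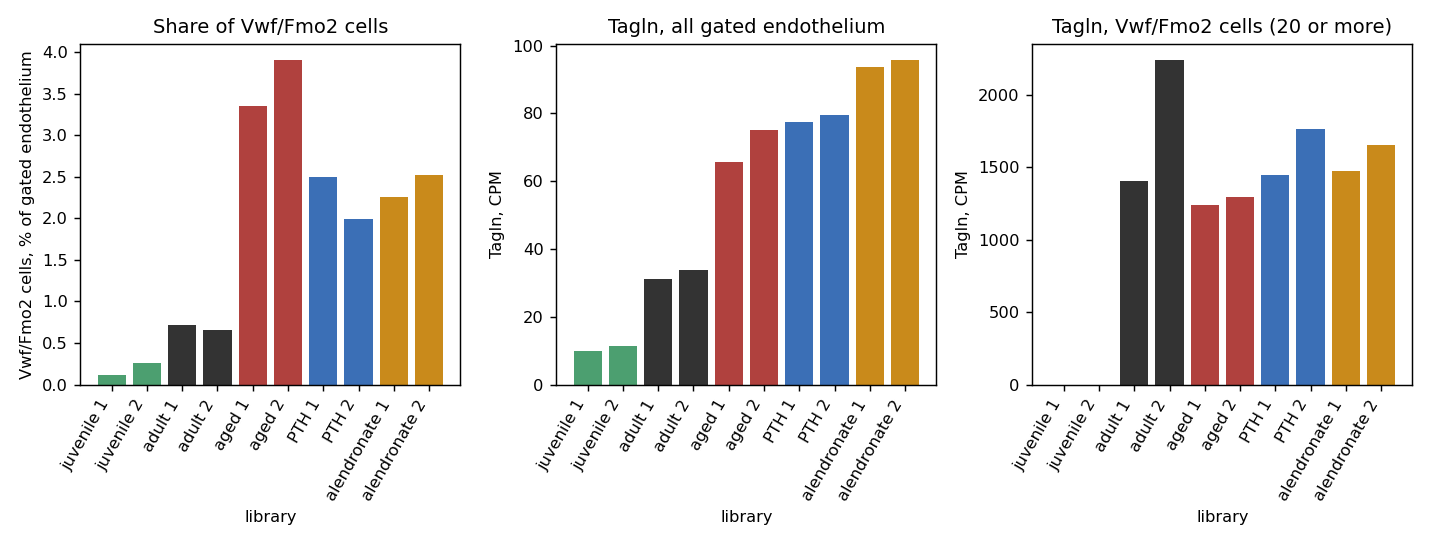
Bars by library for the share of ECs in the Vwf/Fmo2 gate (%), the level of Tagln over all ECs (CPM) and the level of Tagln within Vwf/Fmo2 ECs (CPM; juvenile libraries, with 5 and 10 cells, are not drawn). The first panel runs from 0.119 to 3.90% and the second from 10.0 to 95.7 CPM, while the third stays between 1236 and 2237 CPM. The shares of the first panel were not matched for depth.

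Within Vwf/Fmo2 ECs, 3 of 7 tested members fell in aged libraries (Tagln, Mustn1 and Pdlim1, where 10.2% of all genes fell), with a median of -0.58 over the tested members against 0.04 over all genes. Marker sums of other cell types were higher in the aged than in the adult pair of this type, at 282 to 291 against 150 to 167 CPM for the mesenchymal list, 33.3 and 428 against 14.6 and 23.6 CPM for the haematopoietic list and 17.8 to 19.0 against 0 to 15.8 CPM for the mural list. In this type 4 of the 5 mesenchymal genes averaged under 5 CPM, so 1 gene held most of that sum. The sum ran from 150 to 297 CPM over the 8 libraries of the type, against at most 27.5 CPM in arterial and 42.1 CPM in Timp4/Aqp7 ECs. Without cells holding a mural marker UMI, Tagln (-0.57), Mustn1 (-0.72) and Pdlim1 (-0.53) still fell. The part of the mesenchymal and haematopoietic markers was not tested. Mustn1 fell by 0.69 ± 0.22 (SE; edgeR, adjusted p = 0.0172) and Pdlim1 by 0.58 ± 0.15 (SE; adjusted p = 0.00296), but Pdlim1 was -0.55 without adult replicate 1 (adjusted p = 0.0645), and Mustn1 lost its call without adult replicate 1 (-0.82, adjusted p = 0.0544), adult replicate 2 (-0.50, adjusted p = 0.289) or aged replicate 1 (-0.51, adjusted p = 0.143). Mustn1 also lost it without cells holding a myofibre or platelet marker UMI (-0.64, adjusted p = 0.0611) and with DESeq2 (-0.70, adjusted p = 0.0737). Looser and stricter gates each ended the call of Pdlim1, and stricter gates that of Mustn1. Pgm5 did not pass in aged, PTH or alendronate libraries, the 3 groups tested. With PTH and with alendronate, 0 of 7 passed edgeR's test, where 0.527% and 0.416% of genes did, 0 of 7 had an unadjusted p under 0.05 and DESeq2 called 0. Of the other cytoskeletal genes, 11 of 50 rose and 9 fell in aged Vwf/Fmo2 ECs, where 9.97% of all genes rose. Myh9, the non-muscle myosin heavy chain, rose by 1.68 ± 0.15 (SE; 1137 against 337 CPM), Cald1, caldesmon, by 1.56 ± 0.27 (259 against 84.0 CPM) and Actg1, cytoplasmic gamma-actin, by 2.17 ± 0.73 (54.1 against 10.9 CPM). Myh9 and Actg1 were also called in aged arterial ECs, and Actg1 over all aged ECs, so their calls were not limited to this type.

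In sinusoidal ECs, Tagln was at 2.74 and 1.31 CPM in juvenile, 5.77 and 3.10 in adult, 14.5 and 12.5 in aged, 15.0 and 13.6 in PTH and 12.9 and 10.7 CPM in alendronate libraries. It fell by 1.11 ± 0.32 in juvenile (SE; edgeR, adjusted p = 0.0114) and rose by 1.20 ± 0.27 in aged (adjusted p = 0.000655), 1.62 ± 0.26 in PTH (adjusted p = 0.000355) and 1.43 ± 0.24 in alendronate libraries (adjusted p = 0.000465). These are low counts in few cells, since 363 of 18097 sinusoidal ECs had a Tagln UMI and 1% of the cells held 71.1% of them. Without the sinusoidal ECs that held any UMI of Vwf, Fmo2, Timp4 or Aqp7, the difference was 1.26 in PTH (adjusted p = 0.102) and 1.21 in alendronate libraries (adjusted p = 0.059), so neither call held, and 1.23 in aged libraries (adjusted p = 0.032). The aged pair then stood at 20.4 and 3.19 CPM. Without cells holding a mural marker or Kcnj8 UMI, which leaves out most sinusoidal ECs, the aged difference turned to -0.48 (adjusted p = 0.660). When only cells with a mural marker UMI were left out, Tagln rose by 1.41 in aged libraries (adjusted p = 4.56e-05). In that setting it rose by 1.81 with PTH (adjusted p = 3.33e-05) and 1.36 with alendronate (adjusted p = 0.000365). The juvenile difference there was -0.95 (adjusted p = 0.0166). The juvenile call was lost without juvenile replicate 2 (-0.68, adjusted p = 0.161) or adult replicate 1 (-0.57, adjusted p = 0.299). In juvenile sinusoidal ECs platelet and megakaryocyte markers summed to 199 to 210 CPM, above the adult pair (92.4 to 108 CPM), and haematopoietic markers to 7.23 to 31.0 CPM, below it (60.4 to 205 CPM). Tagln still fell without cells holding a myofibre or platelet marker UMI (-1.31, adjusted p = 0.0225).

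Pdlim1 changed in sinusoidal ECs with both drugs. It was at 53.2 and 48.5 CPM in adult, 87.0 and 80.6 in PTH and 96.2 and 84.3 CPM in alendronate libraries, with no overlap, and rose by 0.68 ± 0.08 (SE; edgeR, adjusted p = 1.47e-05) and 0.86 ± 0.07 (SE; adjusted p = 4.14e-07). Without the cells holding a type R marker UMI it rose by 0.63 and 0.84. With cells thinned to 2000 UMIs the PTH difference was 0.43 and did not pass (adjusted p = 0.113). In all, 3 of 9 members rose with PTH (Tagln, Tpm1, Pdlim1, where 4.65% of all genes rose) and 5 of 9 with alendronate (Tagln, Acta2, Cnn2, Mustn1, Pdlim1, where 8.31% rose). DESeq2 called 2 in each (Tagln and Pdlim1). A mesenchymal marker list summed to 31.9 and 1213 CPM in the PTH sinusoidal libraries and to 24.0 to 37.6 CPM in the other 8, and its part in the rises with PTH was not tested. With alendronate, the call of Acta2 rests on alendronate replicate 1, at 8.66 CPM beside 1.08 CPM in replicate 2, and the difference was 0.46 without it (adjusted p = 0.794) and 2.09 without adult replicate 2 (adjusted p = 0.137). Mustn1 rose by 1.27 ± 0.33 (SE; adjusted p = 0.0139), but the difference was 0.45 without cells holding a type R marker UMI (adjusted p = 0.554) and 1.12 without those holding a myofibre or platelet marker UMI (adjusted p = 0.135), and the call was lost without either adult library (1.21 and 1.31, adjusted p = 0.0886 and 0.0685) or alendronate replicate 1 (0.97, adjusted p = 0.203). Platelet and megakaryocyte markers summed to 139 to 191 CPM in alendronate sinusoidal ECs, again above the adult pair. Of the 80 Acta2 UMIs of alendronate replicate 1 in this type, 70 were in 1 mural-marker cell. Without cells holding a mural marker UMI, Acta2 was 0.31 (adjusted p = 0.779) and Mustn1 0.86 (adjusted p = 0.103), and neither passed. Cnn2 (0.32) and, with PTH, Tpm1 (0.16) rose by small amounts and lost the call when either library of the contrast was left out.

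In aged sinusoidal ECs, 1 of 9 members rose (Tagln) and 4 fell (Myl9, Tpm1, Cnn2, Pdlim1), where 32.9% of all genes rose and 33% fell. Scaling matters here: with plain library totals the median of all genes was 0.42 rather than 0.02, and with those totals Tpm1 was 0.28 higher and Pdlim1 0.089 higher, in place of the falls of 0.12 and 0.31. Cnn2 fell by 0.62 ± 0.10 (SE), and with plain totals by 0.22, which did not pass (adjusted p = 0.0526). Of 25 alternative settings, Tpm1 kept its call in 8 and Pdlim1 in 19. Tpm1 lost it with DESeq2 (adjusted p = 0.167), among others. Pdlim1 was -0.15 without sinusoidal cells holding a type R marker UMI (adjusted p = 0.232) and -0.32 after thinning (adjusted p = 0.171). Myl9 was -1.15 without aged replicate 1 (adjusted p = 0.111) and -1.48 without cells holding a myofibre or platelet marker UMI (adjusted p = 0.0582). The platelet and megakaryocyte markers summed to 34.3 to 39.1 CPM in aged sinusoidal ECs, below the adult pair. Mural markers were at 1.74 to 1.86 CPM in aged and 6.73 to 7.97 CPM in adult sinusoidal ECs. Markers of lymphatic vessels were at 17.8 to 19.0 against 2.79 to 3.21 CPM, and their part was not tested. Without cells holding a mural marker UMI, Myl9 was -1.77 (adjusted p = 0.0106). In juvenile sinusoidal ECs 1 of 9 fell (Tagln, where 17.1% of all genes did) and 0 rose. Of the other cytoskeletal genes, Csrp2 rose by 1.28 ± 0.05 (SE) in juvenile sinusoidal ECs and by 0.58 ± 0.05 with alendronate, and Crip1 fell by 0.83 ± 0.10 in juvenile and rose by 0.54 ± 0.10 with PTH and 0.58 ± 0.09 with alendronate.

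In arterial ECs the clearest treatment difference was again Pdlim1, at 137 and 129 CPM in adult and 220 and 233 CPM in alendronate libraries, a rise of 0.80 ± 0.08 (SE; edgeR, adjusted p = 6e-06). It was the 1 of 8 tested members that rose with alendronate, where 2.78% of all genes did, and 0 fell. Mural markers summed to 137 to 278 CPM in adult and 52.9 to 54.2 CPM in alendronate arterial ECs, and platelet and megakaryocyte markers to 27.6 to 33.0 and 41.9 to 46.4 CPM. The rise of Pdlim1 was 0.84 without cells holding a mural marker UMI and 0.81 without those holding a myofibre or platelet marker UMI. Its paralogue Pdlim4 rose there by 1.35 ± 0.15 (SE; 74.5 against 29.7 CPM). With PTH 0 of 8 members passed edgeR's test (6.29% of genes called) and in juvenile libraries 0 of 8 (13% called), where 2 (Mustn1 and Myl9) and 0 had an unadjusted p under 0.05 and DESeq2 called 0 in both.

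In aged arterial ECs 6 of 8 members fell (Tagln, Acta2, Myl9, Tpm2, Cnn2, Mustn1, where 26.8% of all genes did), with a median of -1.93 over the tested members against -0.02 over all genes. Acta2 fell by 3.76 ± 0.79 (SE), from 36.8 and 38.7 to 3.39 and 2.34 CPM, and Myl9 by 3.63 ± 0.61. The mural markers moved with them: summed over the 8, they were at 137 to 278 CPM in adult and 7.54 to 8.97 CPM in aged arterial ECs, and there were 8 and 13 mural-marker cells in the adult libraries against 0 and 1 in the aged ones. Without cells holding a mural marker UMI, Tagln was 1.55 higher in aged arterial ECs in place of lower (adjusted p = 0.0477), Mustn1 was 0.35 higher (adjusted p = 0.570) and Acta2 no longer passed, whereas Cnn2 still fell, and Myl9 and Tpm2 could not be tested there. Haematopoietic markers summed to 32.8 to 43.4 CPM in adult and to 79.5 and 4532 CPM in the aged arterial libraries, and their part in the falls was not tested. The Tagln fall itself was lost without either adult library (-2.26 and -1.84, adjusted p = 0.0616 and 0.134) or aged replicate 1 (-1.52, adjusted p = 0.157). Cnn2 was at 147 and 148 CPM in adult and 87.5 and 94.0 CPM in aged arterial ECs and fell by 0.77 ± 0.10 (SE; adjusted p = 2.47e-06).

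In Timp4/Aqp7 ECs, 6 of 8 members fell in aged libraries (Tagln, Myl9, Tpm2, Cnn2, Mustn1, Pdlim1, where 18.8% of all genes did), with a median of -1.13 against 0.00 over all genes. DESeq2 called 1 of these 6 (Pdlim1). Tagln was at 69.4 and 196 CPM in adult and 10.6 and 53.8 CPM in aged libraries, a fall of 1.99 ± 0.49 (SE; edgeR, adjusted p = 0.00233). With stricter gates the difference was -0.32 (adjusted p = 0.814), and without adult replicate 2 it was -1.05 (adjusted p = 0.307). That library held the highest Acta2 among adult and aged libraries, at 72.4 CPM, and a summed mural marker level of 547 CPM against 46.3 in its partner and 13.0 to 30.3 in the aged pair. Pdlim1 (-0.46, adjusted p = 0.0912) and Myl9 (-0.74, adjusted p = 0.714) also lost their calls without that library and Tpm2 turned to 3.71 (adjusted p = 0.56). Myl9 was -0.30 with an endothelial gate of 4 UMIs (adjusted p = 0.841). Mustn1 fell by 0.65 ± 0.22 (SE; adjusted p = 0.0203) and Cnn2 by 0.68 ± 0.21, and both lost the call without adult replicate 1 (-0.63 and -0.53, adjusted p = 0.149 and 0.197). Mustn1 also lost it without adult replicate 2 (-0.68, adjusted p = 0.0954) or aged replicate 1 (-0.59, adjusted p = 0.0547), and Cnn2 without aged replicate 2 (-0.45, adjusted p = 0.100). Stricter gates ended the calls of Mustn1, Cnn2, Pdlim1 and Myl9 as well, and thinning to 2000 UMIs ended those of Mustn1 and Cnn2. Without cells holding a mural marker UMI, Tagln was -1.53 (adjusted p = 0.00809) and Pdlim1 -0.63 (adjusted p = 0.00279). In that setting Cnn2 was -0.70 (adjusted p = 0.00778) and Mustn1 -0.61 (adjusted p = 0.0299), and Myl9 and Tpm2 could not be tested. Haematopoietic marker genes, mostly S100a8, stood at 3151 to 5844 CPM in aged Timp4/Aqp7 ECs, and their part in the falls was not tested. With PTH, with alendronate and in juvenile libraries 0 of 8 members passed, where 1.21%, 1.07% and 2.46% of genes did, 3 (Acta2, Myl9, Tpm2), 0 and 1 (Pdlim1) members had an unadjusted p under 0.05, DESeq2 called 0, and the smallest sums there held 24 and 26 cells.

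Whether these changes differed from those in sinusoidal ECs was tested as an interaction of type and group. It passed for 3 members in aged arterial ECs (Tagln, Mustn1, Tpm2, where 16.2% of all genes passed), for Tagln in aged Timp4/Aqp7 ECs (5.79%), for Mustn1 in arterial ECs with PTH (1.78%), and for Pdlim1 in Timp4/Aqp7 ECs with alendronate (0.567%) and in juvenile libraries (1.23%). The calls of Mustn1 with PTH and of Pdlim1 in juvenile libraries were lost when either adult library was left out. In Vwf/Fmo2 ECs it passed for 0 members in edgeR (2.35%, 0.174% and 0.201% of all genes in aged, PTH and alendronate libraries), where 3 (Tagln, Tpm1, Pdlim1), 2 (Tagln, Pdlim1) and 3 (Tagln, Mustn1, Pdlim1) had an unadjusted p under 0.05 in the same order, and DESeq2 called Pdlim1 with alendronate.

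**Figure D5:**
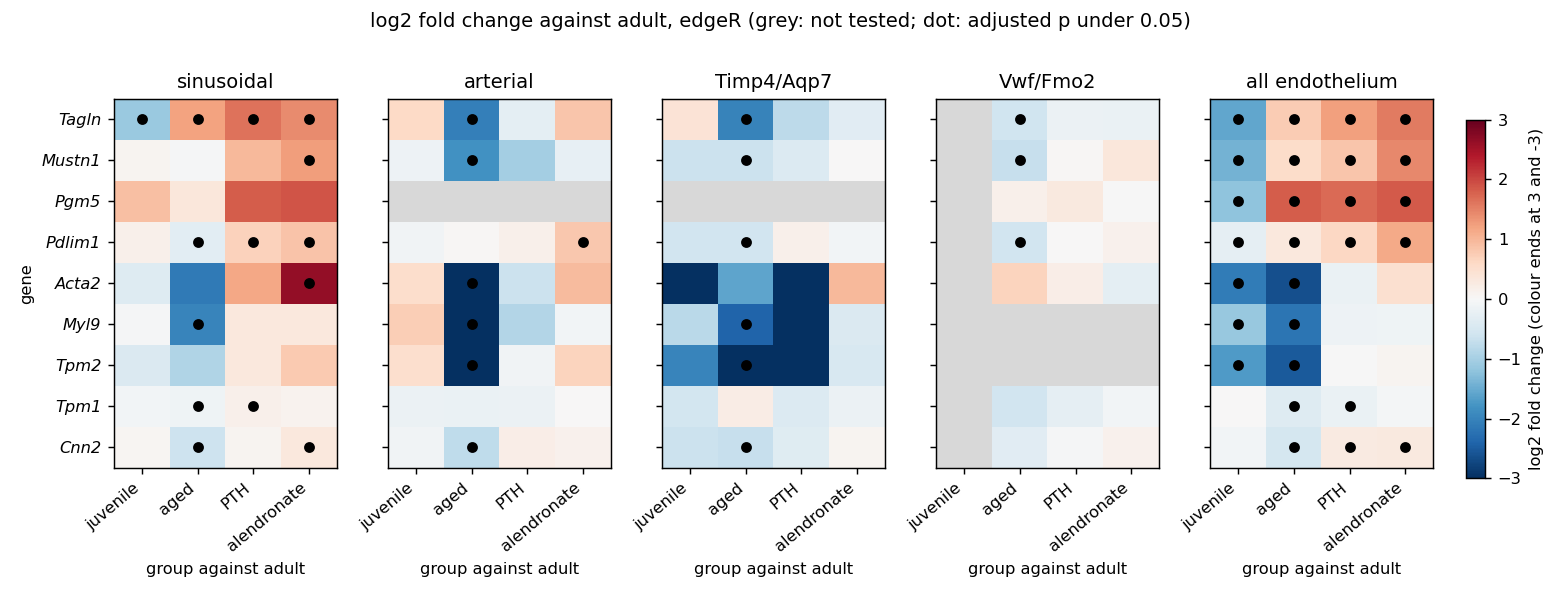
Log2 fold change against adult for each gene and group in sinusoidal, arterial, Timp4/Aqp7, Vwf/Fmo2 and all ECs, with a dot where the edgeR adjusted p was under 0.05, grey where a gene was not tested, and colours ending at 3 in either direction. Tagln reads 1.23 and 1.55 over all ECs with PTH and alendronate and -0.18 and -0.20 within Vwf/Fmo2 ECs.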

How the data were processed

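The 10 tables hold deposited UMI counts per gene and cell. Per the submitters' processing notes the authors used UMI-tools 1.1.2, STAR 2.7.10a and featureCounts 2.0.3 (Subread) with mm10, and the study's methods name 10x 3′ libraries sequenced on a NextSeq 500. The annotation release and the strand setting of the counting are not given in the sources used here. The deposited values carry no library size correction, and doublets were not removed here.

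The 9 genes, the gates and the gene lists were chosen with earlier results of these data known, so tests on them are not independent of that choice. Symbols beginning with U (276), found only in aged libraries (1.52 and 1.53% of their UMIs), were left out, so that 26228 were kept. UMIs were summed per EC type and library (20 or more cells) and tested with edgeR 4.0.16 in R 4.3.3 (TMM scaling, filterByExpr, quasi-likelihood test, all 5 groups in 1 fit, Benjamini-Hochberg adjusted p under 0.05). The difference between an EC type and sinusoidal ECs in a group effect was tested in 1 fit with a term for library and type. A count of 0 cells is given with the share that 3 counts would make (95% intervals and such limits cover counting error only). The fits were tested on simulated data. Alternatives were other gates, cell filters, thinning to 2000 UMIs, other scalings, DESeq2 1.42.0, no filter, a replicate block and leaving out each library. In each comparison, up to 3 other cytoskeletal genes could be named, those with the largest change among calls with a mean of 20 CPM or more. Only some of these genes are given here, and several comparisons are given without theirs. Actn1 and Mylk between the type R gates, Actn1 in arterial ECs and the Vim levels were named after their values were seen, as was Tagln's relation to Vwf. Tables were handled with Python 3.11.15, numpy 2.4.6, pandas 2.3.3, scipy 1.17.1 and matplotlib 3.10.9.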

Additional observations from a re-analysis of the deposited data

Results flagged for a closer look

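In 7 cases the change of a gene against adult differed between an EC type and sinusoidal ECs by a test of the difference itself (edgeR, Benjamini-Hochberg adjusted p under 0.05). In aged libraries the log2 change of Tagln minus that in sinusoidal ECs was -3.38 in arterial (adjusted p = 0.0057) and -3.40 in Timp4/Aqp7 ECs (adjusted p = 0.00958). That of Mustn1 differed by -1.91 (adjusted p = 0.0179) and that of Tpm2 by -4.34 (adjusted p = 0.00958) between aged arterial and aged sinusoidal ECs. The aged arterial libraries held 2 and 0 Tpm2 UMIs, and the Tpm2 difference did not pass without aged replicate 1 (-6.32, adjusted p = 0.184), with looser gates (-3.12, adjusted p = 0.120) or without sinusoidal cells holding a type R marker UMI (-3.58, adjusted p = 0.228). The Mustn1 difference did not pass with any 1 of the 4 adult and aged libraries left out (-1.68 to -2.11, adjusted p = 0.0540 to 0.208), nor that of Tagln in arterial ECs without adult replicate 2 (-2.78, adjusted p = 0.0821). Without cells holding a mural marker UMI the differences of Tagln and Mustn1 in aged arterial ECs were 0.039 and 0.35. The Tagln difference of aged Timp4/Aqp7 ECs was -2.12 without adult replicate 2, where its call was lost. Stricter gates ended that call too, as did leaving out cells with a mural marker or Kcnj8 UMI. When only cells with a mural marker UMI were left out, the call held, at -3.09 (adjusted p = 0.000184).

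With PTH the change of Mustn1 in arterial ECs differed from that in sinusoidal ECs by -1.99 (adjusted p = 0.0117). It was -0.60 without cells holding a mural marker UMI (adjusted p = 0.865), and did not pass without adult replicate 1 (-1.92, adjusted p = 0.116), adult replicate 2 (-2.06, adjusted p = 0.0864) or PTH replicate 2 (-1.63, adjusted p = 0.522). The mural markers summed to 137 to 278 CPM in adult and 18.4 to 62.0 CPM in PTH arterial ECs. Pdlim1 in Timp4/Aqp7 ECs differed by -0.91 with alendronate (adjusted p = 0.00025) and by -0.80 in juvenile libraries (-0.57 against 0.15 in sinusoidal ECs, adjusted p = 0.0395). The former was -0.74 without adult replicate 2 (adjusted p = 0.0908), and the latter rests on sums of 43 and 26 juvenile cells and lost its call in 13 of 24 settings, among them DESeq2 (-0.67, adjusted p = 0.0796), RLE scaling (-0.67, adjusted p = 0.129) and leaving out either juvenile or either adult library (-0.64 to -0.93, adjusted p = 0.0538 to 0.577). No group had 4 or more libraries, so no library was compared with the rest of its group.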

How the results depend on the processing

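Alternatives that leave out mural-marker cells without Kcnj8, leave out sinusoidal cells with a type R marker UMI, or use plain totals or TMM-scaled CPM were added after seeing the data. Each group has 2 libraries, and low counts of Acta2, Myl9 and Tpm2 limit what can be called. The same-numbered libraries did not deviate together (correlations of -0.103 to 0.0292 over 10 pairs), and the replicate block kept 8 of 8 counts within 1.5 times and changed 1 of 57 single-gene calls (Tpm1 in sinusoidal ECs with PTH), with 7, 9, 6 and 5 members called over all ECs. The setting that leaves out cells with Kcnj8 removes most sinusoidal ECs, which express it. The cause of the changes listed here was not tested.

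Of members called in the 4 types, the juvenile count of 1 was 2 with looser gates, 4 after thinning, 0 without cells with a mural marker or Kcnj8, 2 without cells with a myofibre or platelet marker and 2 with no filter. The aged count of 20 was 11 with stricter gates, 9 after thinning, 7 without cells with a mural marker or Kcnj8, 13 without cells with a mural marker and 12 with DESeq2. The PTH count of 3 was 1 after thinning, 1 without type R marker UMIs, 5 without the 5% of cells with most UMIs, 7 with no filter, and 2 with the replicate block. The alendronate count of 6 was 2 without cells with a mural marker or Kcnj8, 3 without type R marker UMIs and 3 with DESeq2. Leaving out 1 library gave 0 to 1, 11 to 19, 2 to 3 and 3 to 9 in that order, and 7, 9, 5 to 7 and 5 to 6 over all ECs. The 7 differences between types were 2, 11 and 18 without cells with a mural marker or Kcnj8, with DESeq2 and with no filter, and 1 to 14 with 1 library left out. The members higher in every library went from 3 to 5 for Timp4/Aqp7 against sinusoidal ECs with stricter gates and from 4 to 2 for arterial against sinusoidal ECs after thinning. Thinned to 2000 UMIs, Tagln was detected in 62.8% of Vwf/Fmo2 and Pdlim1 in 64.5% of Timp4/Aqp7 ECs. Directions turned for Pdlim1 (0.0891) and Tpm1 (0.28) in aged sinusoidal ECs with plain totals. Without cells with a mural marker or Kcnj8 they turned for Tagln in aged sinusoidal ECs (-0.48), in aged arterial ECs for Tagln (1.33) and Mustn1 (0.0400), for Acta2 over all aged ECs (0.67) and for the differences of Tagln (1.69) and Mustn1 (0.0878). Without cells with a mural marker they turned in aged arterial ECs for Tagln (1.55) and Mustn1 (0.35) and for the differences (0.0387 and 0.35). Tpm2 in aged Timp4/Aqp7 ECs was 0.0719 with stricter gates and between -4.08 and 3.71 with 1 library left out, the latter without adult replicate 2.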
